A study of Mus musculus with 11 samples.

Results

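CD172a+ classical dendritic cells (cDCs) labelled as lacking Zeb2 were set against CD24+ cDCs of control mice, both sorted from mouse spleen. The data are 7 of the 11 arrays of the series, chosen by their titles, with 4 arrays of the first group and 3 of the second. The first group came from C57BL/6 mice of genotype Zeb2(fl/fl);CD11c-Cre(tg), abbreviated CKO. The second came from C57BL/6 mice of genotype Zeb2(fl/fl), and so did the 4 arrays of control CD172a+ cDCs that serve here as a reference. The floxed allele was therefore shared by all groups, and only CKO mice carried Cre. The CD11c promoter acts in other cells that express CD11c besides cDCs, and an effect of the transgene cannot be told apart from one of Zeb2 loss. Subset and genotype both differ between the CKO CD172a+ and control CD24+ groups and cannot be told apart within this comparison, which is why each leading gene is also given in control CD172a+ cDCs. Age was not given in the sources used here, no treatment of the mice is named in the labels, and nothing says that the arrays of a group came from separate animals, so p-values may measure technical spread only.

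CD24+ spleen cDCs correspond to the cDC1 subset, which depends on the transcription factors Irf8 and Batf3, takes up dead cells and presents their antigens on MHC class I to CD8 T cells. CD172a+ cDCs correspond to cDC2, which are favoured by Irf4, present antigen on MHC class II to CD4 T cells and carry many lectin and Fc receptors. Zeb2 is a zinc-finger repressor that binds E-box sequences, silences epithelial genes in many tissues and is normally higher in cDC2 than in cDC1.

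Zeb2 was read first, because it checks the labels. Its probe set gave log2 expression values of 8.52, 8.32, 9.07 and 9.24 in the CKO CD172a+ arrays, 5.19, 5.08 and 5.52 in the control CD24+ arrays, and 8.23, 8.23, 8.26 and 8.61 in the control CD172a+ arrays. The CKO arrays therefore lay far above CD24+ cDCs, by 3.59 (SE 0.160, adjusted p = 2.12e-08 in limma; exact two-sided permutation p = 0.0286 over 35 assignments, the smallest possible). They were not below control CD172a+ cDCs, and within each replicate set, described below, every CKO array lay above every control CD172a+ array. The difference there was 0.45 (SE 0.147), with an unadjusted p = 0.00927 and an adjusted p = 0.338 in limma with the set as a block, and an exact two-sided permutation p = 0.171 that ignores the sets. The position of this probe set relative to the floxed exons was not given in the sources used here. It may not report the deletion, and the directions below rest on the label CKO.

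Markers of all cDCs were present in both groups. Itgax, which encodes CD11c, averaged 10.87 ± 0.45 (SD, n = 4) in CKO CD172a+ and 9.87 ± 0.47 (SD, n = 3) in CD24+ arrays, Flt3 averaged 9.82 and 10.05, and H2-Ab1, a chain of MHC class II, 12.50 and 12.54. The first principal component over all genes held 39.9% of the variance and placed the CKO arrays at 11.23 to 26.3, the control CD172a+ arrays at 9.25 to 22.81 and the CD24+ arrays at -56.02 to -41.41. The second component, with 34.2%, separated replicate sets that cross all groups. The first set holds CD24+ replicate 1 and replicates 1 and 2 of the other groups, and the second set holds the rest. The labels do not name these sets, which were found from the expression values. Arrays of 1 group and 1 set differed over genes with an SD of 0.216 to 0.331, against 0.420 to 0.507 for arrays of 1 group in different sets, and 30.1% of genes passed the test between sets. Because the sets were found from these same values, such differences were built in and are no independent support for the sets. Adjusted p-values with the set as a block may be too small for the same reason.

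**Figure D1:**
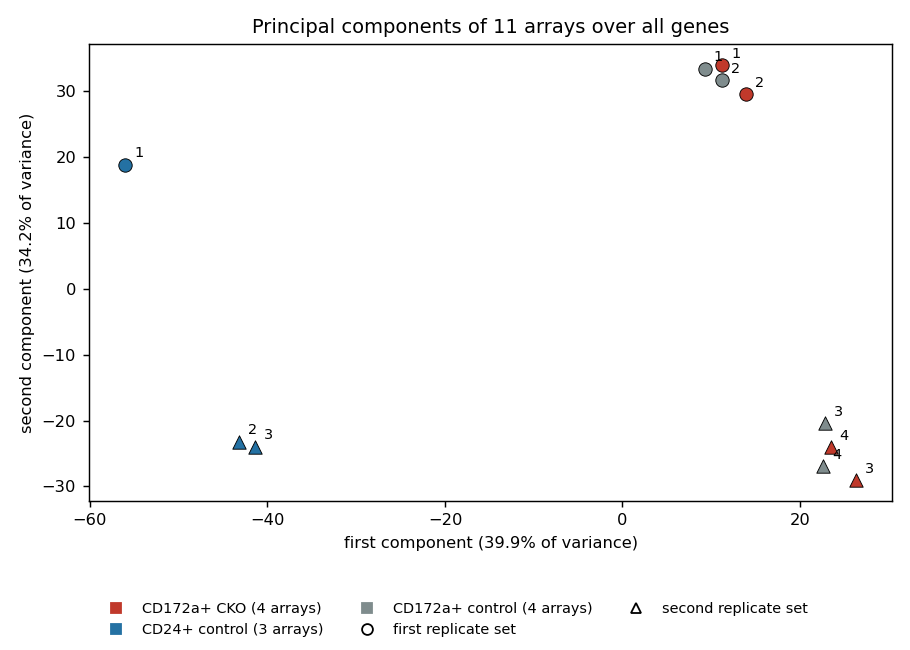
First and second principal components of the 11 arrays over all genes, coloured by group, with circles for the first and triangles for the second replicate set and the replicate number beside each point. On the first component the CKO CD172a+ arrays lie at 11.23 to 26.3 and the control CD172a+ arrays at 9.25 to 22.81, and the CD24+ arrays lie between -56.02 and -41.41.

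With the replicate set as a block, 3641 of 19938 genes passed an adjusted p of 0.05, which is 18.3% of those tested. Of these, 1500 (7.52%) were higher and 2141 (10.7%) lower in CKO CD172a+ than in CD24+ cDCs, and 881 (4.42%) differed at least 2-fold, 417 of them higher and 464 lower. The arrays of both groups did not overlap for 17.9% of genes, and the median difference over all genes was 0.04. With no replicate block 1429 genes passed, 647 higher and 782 lower, and all 1429 were among the 3641. Control CD172a+ cDCs, compared with the same CD24+ arrays, gave 3080 genes (15.4%), 1375 higher (6.90%) and 1705 lower (8.55%). Against control CD172a+ cDCs the CKO arrays differed in 29 genes (0.145%), 18 higher (0.0903%) and 11 lower (0.0552%), and 10 genes passed that comparison with no replicate block. Because these are bulk samples, fewer cells of a type and less RNA per cell cannot be told apart.

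**Figure D2:**
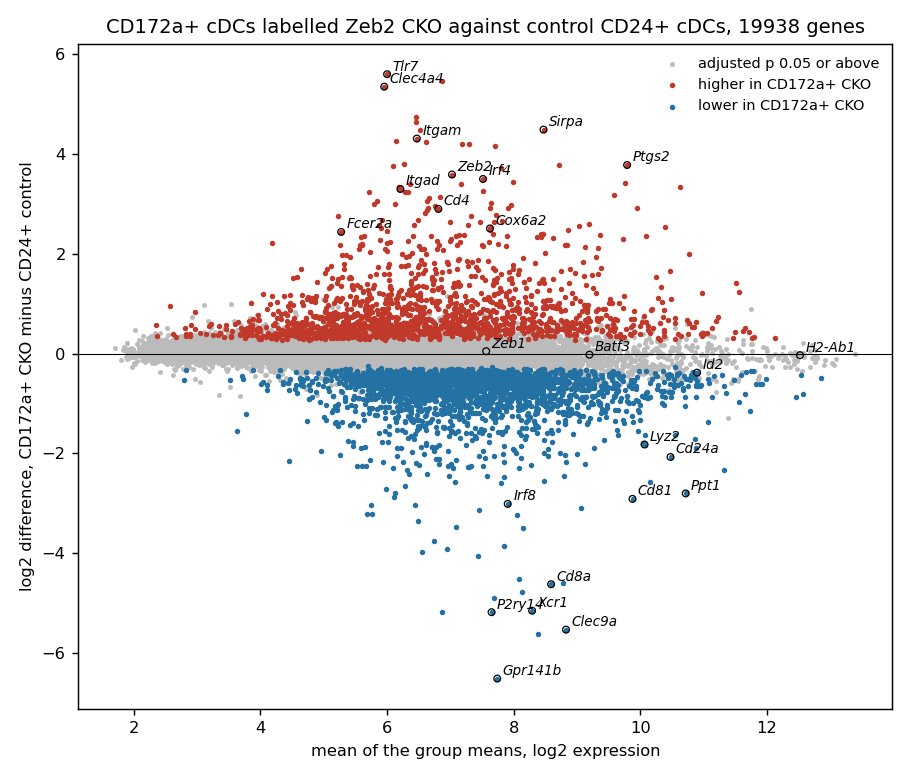
Log2 difference between CKO CD172a+ and control CD24+ cDCs (vertical axis) against the mean of both group means (horizontal axis) for all 19938 genes, with genes past adjusted p 0.05 in red when higher and in blue when lower in CKO CD172a+ cDCs. Tlr7 (5.60) and Gpr141b (-6.51) mark the named extremes, and H2-Ab1 and Batf3 lie near 0.

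The genes that define cDC1 were low in CKO CD172a+ cDCs. Gpr141b, an orphan G protein-coupled receptor gene, had the largest fall among named genes. It read 5.17, 4.51, 4.39 and 3.92 in CKO CD172a+, 10.91, 11.09 and 10.95 in CD24+ and 4.37, 4.58, 4.24 and 5.03 in control CD172a+ arrays. The CD24+ arrays stood far above all 8 CD172a+ arrays, and the CKO minus CD24+ difference was -6.51 (SE 0.245, adjusted p = 5.78e-09). Clec9a, the lectin by which cDC1 recognise actin exposed on dead cells, read 6.03, 5.99, 6.03 and 6.08 in CKO CD172a+, 11.70, 11.75 and 11.41 in CD24+ and 6.52, 6.17, 6.89 and 7.44 in control CD172a+ arrays. Its difference was -5.53 (SE 0.204, adjusted p = 5.08e-09), and every CKO array lay below every control CD172a+ array, although that difference of -0.72 did not pass (adjusted p = 0.207). P2ry14, a receptor for UDP-sugars, read 4.84, 4.50, 5.46 and 5.19 in CKO CD172a+, 10.17, 10.20 and 10.53 in CD24+ and 4.54, 5.18, 5.97 and 6.15 in control CD172a+ arrays, a CKO minus CD24+ difference of -5.18 (SE 0.211, adjusted p = 1.02e-08). Its CD172a+ groups overlapped. Xcr1, the receptor for the chemokine XCL1 and the most used cDC1 marker, read 5.34, 5.66, 5.89 and 5.87 in CKO CD172a+, 11.18, 10.71 and 10.79 in CD24+ and 5.03, 5.19, 5.84 and 5.83 in control CD172a+ arrays. The difference was -5.15 (SE 0.189, adjusted p = 5.08e-09), again with CD24+ cDCs apart from both other groups.

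All 27 measured cDC1 markers were lower in CKO CD172a+ cDCs, with a median difference of -3.49 against 0.04 for all genes, and 24 were lower with no replicate block. The list had been composed from knowledge of these subsets, with earlier results of these arrays known, so the count describes the members and is not independent support. The lysosomal amidase Naaa fell by 4.60, the scavenger receptor Cd36 by 4.90, the small GTPase Rab7b by 4.77 and the lipid phosphatase Plpp1 by 3.98 on the log2 scale. The interferon-inducible gene Ifi205 fell by 5.61, Cd8a by 4.62, Hepacam2 by 4.05, Tlr3 by 3.85 and Gcsam by 3.75. Itgae, which encodes CD103, read 4.95, 4.77, 5.05 and 4.89 in CKO CD172a+ and 7.88, 8.01 and 8.01 in CD24+ arrays, a difference of -3.04 (adjusted p = 5.78e-09). Outside the list, P3h2, a collagen prolyl hydroxylase, fell by 5.17 and Pdia5, a disulfide isomerase, by 3.91. Cd8a also followed the replicate sets, reading 7.04, 7.04, 5.95 and 5.47 in the CKO arrays and 7.11, 6.90, 5.39 and 6.05 in control CD172a+ arrays, while all CD24+ arrays were at 10.32 or above. Cd24a fell by 2.07, but its product was used to sort the cells and the value is no finding.

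Genes that define cDC2 were high in the same cells. Tlr7, the endosomal receptor for single-stranded RNA, had the largest rise. It read 8.65, 8.69, 8.69 and 9.13 in CKO CD172a+, 3.25, 3.17 and 3.20 in CD24+ and 8.34, 8.34, 8.06 and 8.66 in control CD172a+ arrays. CD24+ cDCs were lowest throughout, and the difference was 5.60 (SE 0.147, adjusted p = 6.47e-10). Clec4a4, the inhibitory lectin DCIR2 recognised by the antibody 33D1, read 8.93, 8.89, 8.48 and 8.35 in CKO CD172a+, 2.89, 3.21 and 3.64 in CD24+ and 8.91, 8.89, 7.82 and 8.32 in control CD172a+ arrays. That difference was 5.35 (SE 0.235, adjusted p = 1.93e-08), and the CD172a+ groups overlapped. Itgam, which encodes CD11b, read 9.08, 8.72, 8.49 and 8.41 in CKO CD172a+, 4.83, 3.67 and 4.31 in CD24+ and 8.73, 8.49, 8.12 and 7.99 in control CD172a+ arrays, a CKO minus CD24+ difference of 4.31 (SE 0.155, adjusted p = 5.08e-09). Cd4, carried by part of the spleen cDC2, read 9.10, 9.11, 7.36 and 7.72 in CKO CD172a+, 5.09, 5.41 and 5.40 in CD24+ and 8.91, 9.04, 8.71 and 7.90 in control CD172a+ arrays. The CKO arrays were split by replicate set, and the CKO minus CD24+ difference of 2.90 (SE 0.310, adjusted p = 3.40e-05) was 4.02 in the first and 2.13 in the second set.

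Of 30 measured cDC2 markers, 26 were higher, 2 lower and 2 not past the test, with a median difference of 2.33 (23 higher and 2 lower with no replicate block). This list carries the same limit as the cDC1 list. The largest rises after those above were of the lectins Clec4a1 (4.75) and Clec4a3 (3.80), the adaptor Sh2d1b1 (4.48), the adhesion molecule Dscam (4.27), the elastase Mmp12 (4.20) and Ptgs2, the inducible cyclooxygenase (3.78). Rtp4, a chaperone of receptors, rose by 4.65. Sirpa, which encodes CD172a, was higher by 4.49, and this value comes from the sort. Esam, an adhesion molecule that marks Notch-dependent cDC2, differed by 0.58 (adjusted p = 0.0242), a call that ended with no replicate block (0.159). The 2 members past the test in the other direction were Lyz2, the lysozyme of myeloid cells (-1.82), and Clec12a (-2.17), which was chosen after its values were seen. The lectins Clec10a (0.17) and Mgl2 (0.25) did not pass. Other leading rises outside the list were of Adgre1, which encodes F4/80 (4.24), Ms4a4c (4.16), Ifit3 (4.20) and Cd7 (3.79).

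**Figure D3:**
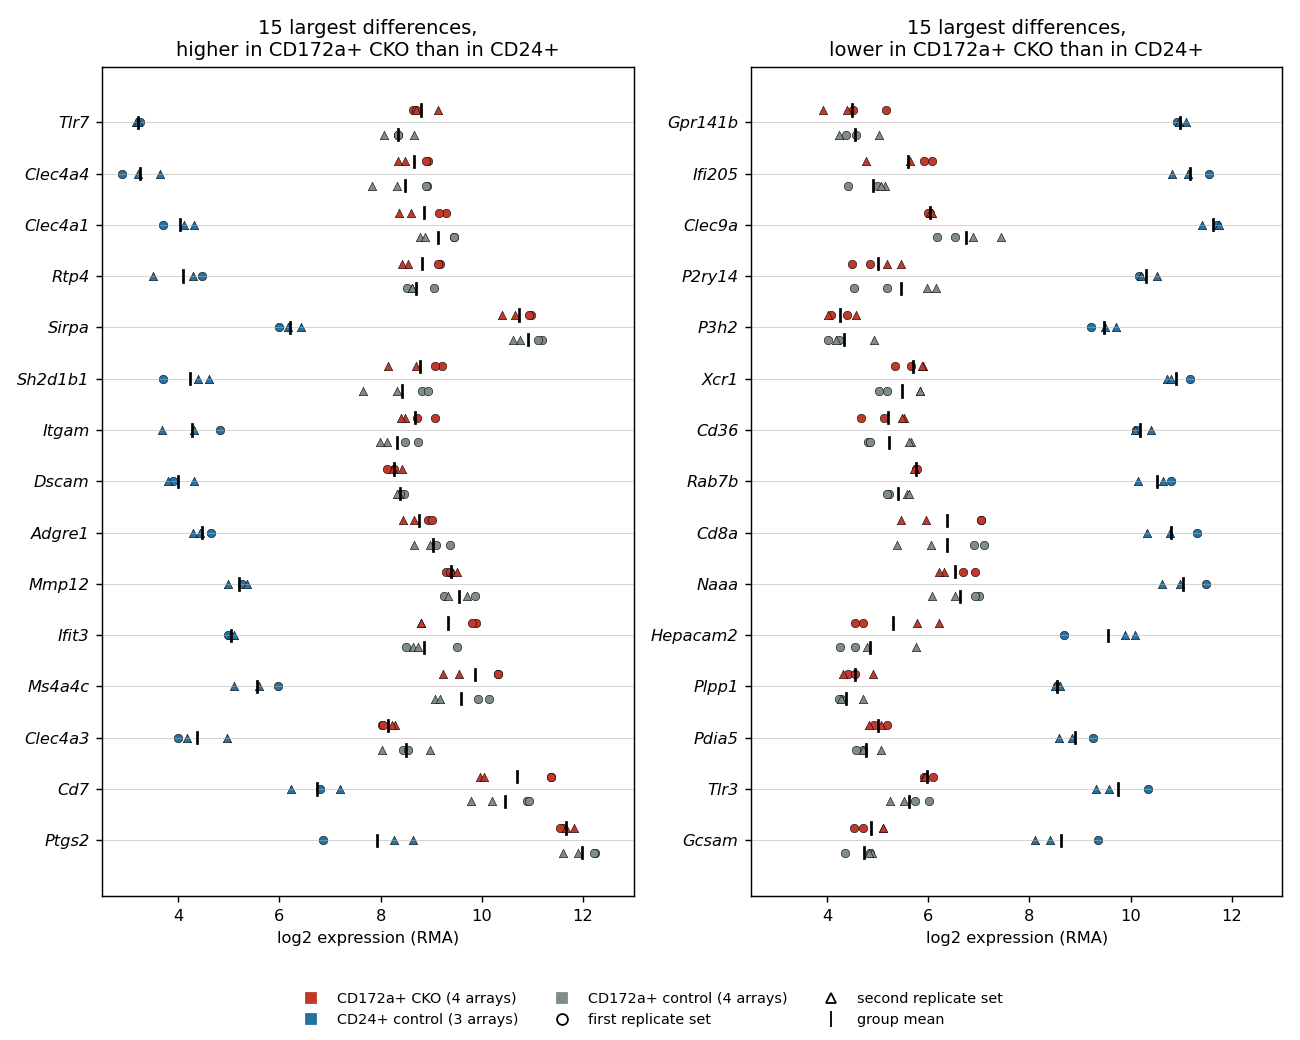
Log2 expression (horizontal axis) of the 15 genes with the largest rise (left) and the largest fall (right) in CKO CD172a+ against control CD24+ cDCs, 1 point per array, with a bar at each group mean. For every gene the red CKO points lie near the grey control CD172a+ points and apart from the blue CD24+ points, as for Tlr7 with 8.65 to 9.13 against 3.17 to 3.25.

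None of these 30 leading genes passed the test between CKO and control CD172a+ cDCs, where 0.145% of all genes did. The differences there ran from -0.72 for Clec9a to 0.70 for Ifi205, with adjusted p from 0.207 for Clec9a to 0.987 for Cd8a, which does not show that the levels were equal. For 19 of the 30, the lower of both group means was below 5.53, the level of the median gene. Array values are compressed near background, so such folds are approximate.

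Transcription factors of DC lineages separated the groups less uniformly. Irf4, the factor that favours cDC2, read 9.74, 9.67, 8.72 and 9.05 in CKO CD172a+, 4.92, 6.13 and 6.17 in CD24+ and 9.45, 9.27, 8.90 and 8.15 in control CD172a+ arrays. It was higher in every CKO array than in any CD24+ array, by 3.50 (SE 0.357, adjusted p = 2.20e-05), with 4.78 in the first and 2.74 in the second replicate set. Irf8, the factor required by cDC1, read 6.30, 6.16, 6.42 and 6.72 in CKO CD172a+, 10.67, 8.85 and 8.72 in CD24+ and 5.91, 5.74, 6.80 and 6.94 in control CD172a+ arrays. Its fall of 3.01 (SE 0.432, adjusted p = 0.000360) amounted to -4.44 within the first set, whose only CD24+ array read 10.67, and to -2.22 within the second. Batf3, the partner of Irf8 in cDC1, did not pass the test between CKO CD172a+ and CD24+ cDCs. It read 9.42, 9.38, 9.06 and 9.03 in CKO CD172a+, 9.67, 8.70 and 9.12 in CD24+ and 8.95, 9.03, 8.78 and 8.57 in control CD172a+ arrays. The CKO minus CD24+ difference was -0.02 (SE 0.126, adjusted p = 0.951), and its sign turned under other settings, while control CD172a+ cDCs differed from the same CD24+ arrays by -0.41 (adjusted p = 0.0471). Klf4, a factor of type 2 responses in cDC2, rose by 1.22 (adjusted p = 1.25e-05). Id2, which restrains E proteins, was 10.67 against 11.12, a difference of -0.38 (adjusted p = 0.0325) that did not pass with no replicate block (0.252). Zeb1, the paralogue of Zeb2, read 7.59, 7.38, 7.70 and 7.65 in CKO CD172a+ and 7.41, 7.65 and 7.58 in CD24+ arrays, a difference of 0.05 (adjusted p = 0.792). The E protein gene Tcf4 (0.36), the receptor gene Notch2 (-0.35) and the cDC factor Zbtb46 (-0.29) did not pass either.

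Of 51 measured DC transcription factors, 15 were higher, 6 lower and 30 not past the test, with a median of 0.09 (9 higher and 3 lower with no replicate block). Over all genes 7.52% were higher and 10.7% lower, the shares beside which this and the following list counts stand. The share of lower factors was near that of all genes. Besides Zeb2, Klf4 and Irf4, the members with the smallest p included Tbx21, the T-bet gene, which rose by 1.51, and Prdm1, the Blimp-1 gene, which rose by 1.98. In control CD172a+ cDCs these rose against CD24+ cDCs too, with means of 7.04 for Tbx21 and 6.13 for Prdm1 beside 7.12 and 6.34 in CKO CD172a+ cDCs.

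Receptors for nucleic acids changed in both directions. Tlr3, the receptor for double-stranded RNA, read 6.10, 5.91, 5.91 and 5.94 in CKO CD172a+, 10.35, 9.32 and 9.57 in CD24+ and 5.73, 6.02, 5.24 and 5.52 in control CD172a+ arrays, the reverse of Tlr7. The fall was 3.85 (SE 0.161, adjusted p = 1.15e-08). Tlr12, a receptor for profilin, fell by 1.76, while Tlr1, a lipopeptide receptor, rose by 3.44 and the adaptor Ticam2 by 1.59. Among 24 measured Toll-like receptors and adaptors, 6 were higher and 4 lower (5 and 2 with no replicate block). Tlr4 (0.05) and Tlr9 (0.39) did not pass. Of 22 cytosolic nucleic acid and inflammasome sensors, 11 were higher and 2 lower (8 and 1 with no replicate block), with a median of 0.50. Control CD172a+ against CD24+ cDCs gave 10 higher and 2 lower sensors. Ddx58, which encodes the RNA sensor RIG-I, read 8.40, 8.31, 7.59 and 7.59 in CKO CD172a+ and 4.04, 5.08 and 4.96 in CD24+ arrays, and these groups stood apart with a difference of 3.23 (SE 0.293, adjusted p = 8.44e-06). The sensor gene Ifih1 rose by 1.08, the inflammasome receptor Nlrc4 by 2.58 and Ifi203 by 2.48, while Ifi205 of the same gene family fell by 5.61. The Ifi200 genes are near-identical copies in part, so probes may not tell them fully apart.

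Interferon-stimulated genes were mostly higher in CKO CD172a+ cDCs, with 13 of 22 measured members higher, 2 lower and a median of 1.18. Ifit3, which binds foreign RNA with its partners, read 9.88, 9.81, 8.80 and 8.80 in CKO CD172a+, 4.99, 5.04 and 5.10 in CD24+ and 8.51, 9.51, 8.64 and 8.74 in control CD172a+ arrays. The CD24+ arrays were at a uniform low level, and the difference was 4.20 (SE 0.242, adjusted p = 1.70e-07). Rtp4 read 9.17, 9.14, 8.54 and 8.42 against 4.46, 4.30 and 3.51, Isg20 rose by 1.76, Xaf1 by 1.52 and Oasl2, of the 2'-5' oligoadenylate synthetase family, by 2.67. Ifit1, chosen after its values were seen, rose by 2.52 (SE 0.207, adjusted p = 3.41e-06). The 2 lower members were Mx1 (-1.57) and Bst2 (-0.43), both named after their values were seen, and the call for Bst2 ended with no replicate block (0.660). Irf7 (-0.15), a main factor of interferon production, did not pass. Over all genes 30.1% differed between replicate sets, and of the 22 members 13 did, 1 of them higher in the second set. That part of the result was not tested. Against control CD172a+ cDCs, 0 of 22 members passed (median 0.29).

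Promoter windows are shown for members of groups that moved together, because their letters can be set beside the values. Windows are the 250 bases before the start site from RefSeq on GRCm38.p6, and capitals mark matches on either strand. The core of the interferon-stimulated response element, GAAA and GAAA separated by any 2 bases, occurs in 2.98% of 32851 such windows. It occurred in 5 of 14 windows of the 11 matched genes among the 13 interferon-stimulated genes that rose, in Ifit3 and Ifit1 at 2 places each. Ifit3 lies at chr19:34583279-34583528 on the plus strand and Ifit1 at chr19:34640639-34640888 on the plus strand. Gpr141b, at chr13:19732952-19733201 on the minus strand, is shown because it fell most and holds 1 match 12 bases before its start. Its window is not typical of its group, as the motif occurred in 2 of 26 windows of cDC1 markers. In cDC2 markers it occurred in 0 of 30 windows. A match is a description of letters and shows no binding. The composite element of ETS and IRF factors, GGAA and GAAA separated by any 2 bases, was counted too but is not capitalised, occurs in 2.30% of windows and in 1 of the 14, and can overlap the first motif.
Ifit3: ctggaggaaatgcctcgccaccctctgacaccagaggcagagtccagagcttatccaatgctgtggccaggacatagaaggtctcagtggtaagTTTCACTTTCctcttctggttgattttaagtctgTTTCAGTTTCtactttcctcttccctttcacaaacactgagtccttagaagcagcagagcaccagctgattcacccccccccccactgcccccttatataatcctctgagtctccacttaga
Ifit1: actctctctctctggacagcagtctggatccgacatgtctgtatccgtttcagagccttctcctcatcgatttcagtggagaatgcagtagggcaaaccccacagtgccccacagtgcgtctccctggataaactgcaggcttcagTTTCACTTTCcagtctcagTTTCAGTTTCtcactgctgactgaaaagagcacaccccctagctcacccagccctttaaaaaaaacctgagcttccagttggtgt
Gpr141b: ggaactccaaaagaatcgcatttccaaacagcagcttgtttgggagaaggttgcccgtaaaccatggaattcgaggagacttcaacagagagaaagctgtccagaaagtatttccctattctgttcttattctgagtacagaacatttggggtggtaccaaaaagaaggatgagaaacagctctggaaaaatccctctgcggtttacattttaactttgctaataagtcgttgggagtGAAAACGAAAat

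Surface lectins and Fc receptors changed in both directions, with more members higher than lower. Of 36 C-type lectin receptors, 16 were higher, 8 lower and 12 not past the test (13 and 5 with no replicate block). In control CD172a+ against CD24+ cDCs, 18 were higher and 8 lower. The rises in CKO CD172a+ cDCs included the neighbours Clec4a1 to Clec4a4 and Clec4b1 (3.24), with Clec4a2 up by 3.05. These lectins form a cluster of similar genes, and cross-hybridisation between them cannot be told apart from expression here. Of 27 Fc receptors and Cd300 family members, 17 were higher and 1 lower (10 and 0 with no replicate block), with a median of 0.87. The counts in control CD172a+ against CD24+ cDCs were 17 and 2. The inhibitory receptors Lair1 (2.35), Cd33 (2.36) and Siglecg (2.24) rose, with group means in control CD172a+ cDCs of 9.28, 7.71 and 8.87 beside 9.11, 7.90 and 8.76 in CKO CD172a+ cDCs. Fcer2a, the low-affinity IgE receptor CD23, rose by 2.44 and is described further below. Of 29 receptors for dead cells and scavenger receptors, 8 were higher and 5 lower (3 and 4 with no replicate block, and 5 higher without CD24+ replicate 2). Besides Clec9a and Cd36, the high-density lipoprotein receptor Scarb1 fell by 1.14 and the lysosomal Scarb2 by 0.77, while Cd300lf, a receptor for phospholipids, rose by 2.58.

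Genes for antigen processing split by pathway. Of 19 genes of MHC class I peptide loading, 0 were higher and 11 lower, with a median of -0.69, and 5 were lower with no replicate block. Control CD172a+ cDCs gave 0 higher and 12 lower against the same CD24+ arrays, with a median of -0.75. Pdia3, the disulfide isomerase of the loading complex, fell by 1.24 (SE 0.112, adjusted p = 7.92e-06). Tap1, a subunit of the peptide transporter, read 8.73, 8.68, 7.59 and 7.72 in CKO CD172a+ and 9.79, 9.39 and 9.13 in CD24+ arrays. All CKO arrays lay below all CD24+ arrays, and the fall of 1.40 (adjusted p = 3.28e-05) did not pass with no replicate block (0.0623). Tap2 fell by 0.69, Cd1d1, which presents lipids, by 0.94 and the proteasome activator Psme1 by 0.87. B2m, the shared light chain, differed by 0.17 and did not pass. Of 12 genes of MHC class II and its chaperones, 1 was higher and 1 lower, namely H2-Ea (1.10) and Cd9 (-1.25), and the call for Cd9 ended with no replicate block (0.0504). These class II counts were 1 and 1 in control CD172a+ against CD24+ cDCs as well. C57BL/6 mice carry a defective H2-Ea gene. H2-Aa (-0.01), H2-Ab1 (-0.03) and the invariant chain Cd74 (-0.14) did not pass.

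Endosomal and lysosomal genes also differed. Of 28 Rab GTPases and membrane traffic genes, 0 were higher and 11 lower (6 with no replicate block), with a median of -0.34. Against the same CD24+ arrays, control CD172a+ cDCs had 0 higher and 9 lower. In CKO CD172a+ cDCs the following members fell. Rab32, which serves lysosome-related organelles, fell by 1.59, Rab43, known for cross-presentation in cDC1, by 1.0, the syntaxin Stx3 by 0.83 and Wdfy4, required for cross-presentation, by 0.65. Wdfy4 read 10.58 in CKO CD172a+, 11.19 in CD24+ and 10.33 in control CD172a+ cDCs on average, a smaller contrast than for other cDC1 markers. Among 26 lysosomal proteases and hydrolases, 6 were higher and 9 lower. Ppt1, a thioesterase that removes fatty acids from proteins, read 9.67, 9.58, 8.82 and 9.32 in CKO CD172a+ and 12.09, 12.15 and 12.03 in CD24+ arrays, a fall of 2.80 (SE 0.139, adjusted p = 4.99e-08) with the groups well apart. The sphingolipid activator Psap fell by 1.71, while the protease Ctsa rose by 1.38. Of 10 NADPH oxidase subunits, 2 were higher and 0 lower. Cybb, the catalytic subunit gp91phox, read 10.30, 10.23, 9.13 and 9.27 in CKO CD172a+, 6.05, 5.54 and 5.98 in CD24+ and 10.29, 10.23, 9.22 and 9.05 in control CD172a+ arrays. The Cybb rise of 3.73 (SE 0.167, adjusted p = 2.17e-08) was the larger of the rises. The proton channel Hvcn1 rose by 1.26, and the other subunits, such as Ncf1 (0.45) and Ncf4 (-0.34), did not pass.

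**Figure D4:**
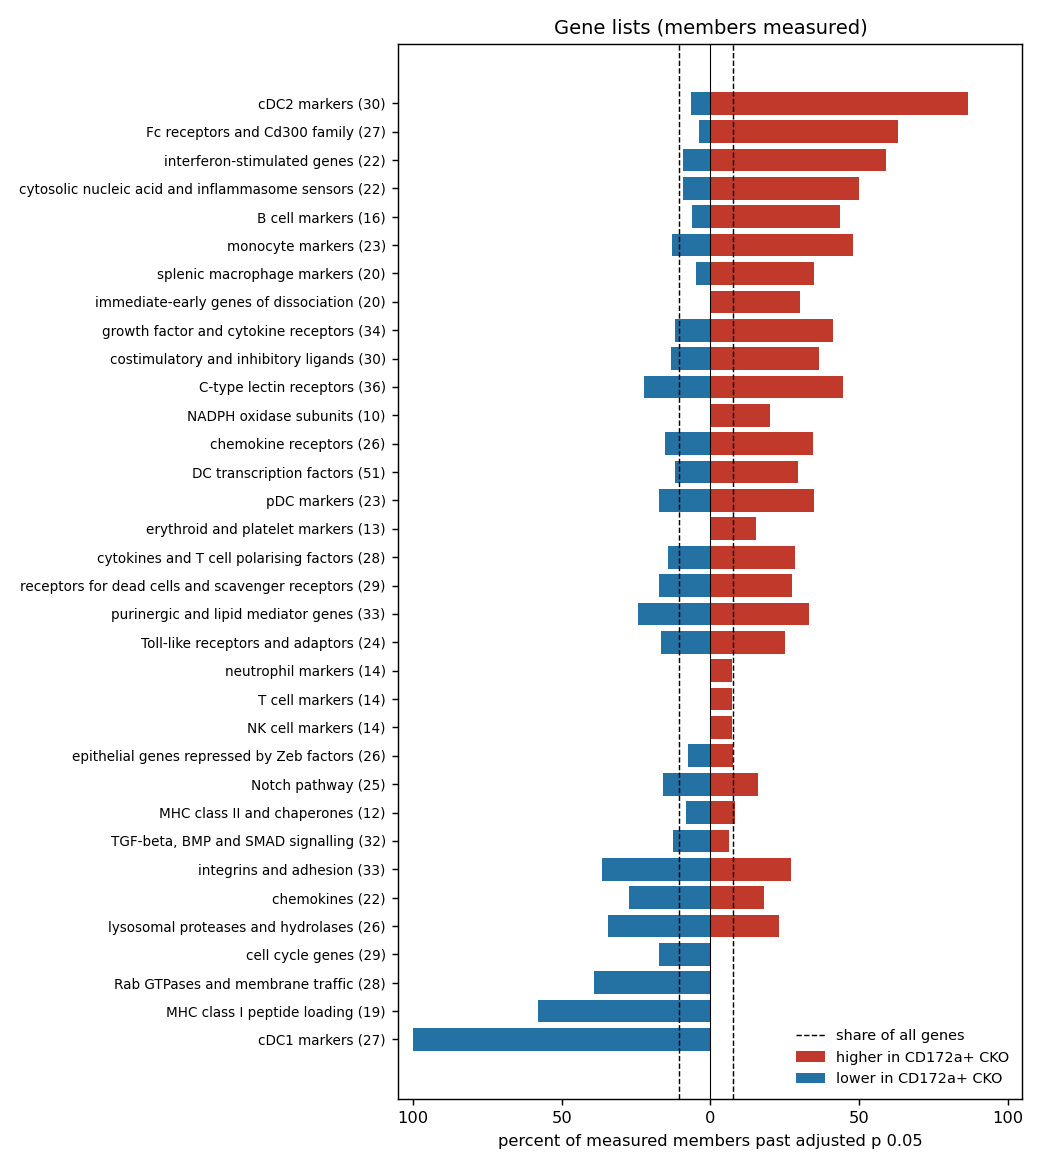
Percent of measured members of each of the 34 gene lists that were higher (red, to the right) or lower (blue, to the left) in CKO CD172a+ than in control CD24+ cDCs at adjusted p 0.05, with the number of measured members in parentheses and dashed lines at the shares of all genes (7.52% and 10.7%). The cDC1 list reaches 27 of 27 lower, and the lists of MHC class I loading and Rab GTPases hold 0 higher members.

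Of 26 chemokine receptors, 9 were higher, 4 lower and 13 not past the test (3 higher and 4 lower with no replicate block, and 5 higher without CD24+ replicate 3). For these and the chemokines below, the shares of all genes were 7.52% higher and 10.7% lower. Gpr183, the oxysterol receptor that positions cDC2 in the bridging channels, rose by 2.30 (SE 0.119, adjusted p = 6.66e-08), with a mean of 10.93 against 8.51 in CD24+ and 10.42 in control CD172a+ cDCs. Ccr6 rose by 1.55 and Ccr9 fell by 2.20. Ccr2, the receptor that lets monocytes leave the marrow, read 4.76, 4.87, 5.42 and 5.50 in CKO CD172a+, 8.17, 6.91 and 7.42 in CD24+ and 6.38, 5.93, 6.27 and 6.89 in control CD172a+ arrays. The 3 groups did not overlap, with CKO lowest. The fall against CD24+ cDCs was 2.34 (SE 0.294, adjusted p = 0.000127), and the difference of -1.23 from control CD172a+ cDCs did not pass (adjusted p = 0.118). Of 22 chemokines, 4 were higher and 6 lower (2 and 4 with no replicate block). The T cell and monocyte attractants Ccl22 (-1.94), Ccl2 (-2.0) and Ccl7 (-1.96) fell, and Xcl1, the ligand of Xcr1, rose by 1.40. Ccl3 rose by 1.41, a call that ended with no replicate block (0.0981).

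Cytokine genes gave 8 higher and 4 lower of 28 (3 and 3 with no replicate block), and 4 higher without CKO replicate 4 or CD24+ replicate 3. Beside this stand 7.52% of all genes higher and 10.7% lower. Il12b, the p40 subunit of interleukins 12 and 23, read 6.26, 6.55, 7.84 and 7.69 in CKO CD172a+, 8.89, 9.86 and 10.92 in CD24+ and 6.83, 7.01, 8.17 and 8.71 in control CD172a+ arrays. All CKO arrays were below all CD24+ arrays although the levels moved with the replicate set, and the fall was 2.56 (SE 0.211, adjusted p = 3.56e-06). The receptor antagonist Il1rn rose by 1.70, Flt3l, the cDC growth factor, by 0.78, and Lif fell by 0.86. Il15ra, which presents interleukin 15 to lymphocytes, fell by 1.01 with the block and did not pass without it (0.0961). Of 34 growth factor and cytokine receptors, 14 were higher and 4 lower (7 and 1 with no replicate block). The decoy receptor Il1r2 rose by 3.18, Csf3r by 1.32, Il17ra by 0.98 and Csf1r by 1.79, while Tnfrsf21 fell by 1.48. Of 30 costimulatory and inhibitory ligands and their adaptors, 11 were higher and 4 lower (6 and 2 with no replicate block). Btla, an inhibitory receptor that binds HVEM, fell by 1.92 and Cd226 by 1.45, and the SLAM family members Slamf6 (1.96) and Cd84 (1.80) rose with their adaptor Sh2d1b1. The costimulatory genes Cd86 (-0.06) and Cd40 (0.04) did not pass.

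Of 33 integrins and adhesion genes, 9 were higher and 12 lower (5 and 8 with no replicate block). Itgam and Itgad, which encode alpha chains of beta-2 integrins, rose, whereas Itgae and Cd81, a tetraspanin, fell. Of 33 purinergic and lipid mediator genes, 11 were higher and 8 lower (9 and 4 with no replicate block, and 5 lower without CD24+ replicate 3). Ptgs2 read 11.60, 11.55, 11.66 and 11.82 in CKO CD172a+, 6.86, 8.26 and 8.65 in CD24+ and 12.23, 12.22, 11.90 and 11.61 in control CD172a+ arrays, a rise of 3.78 (SE 0.312, adjusted p = 3.62e-06). Other genes of prostaglandin biology rose with it, namely the prostaglandin D synthase Hpgds by 2.75 and the receptor Ptger3 by 2.28. Hpgds averaged 8.66 in CKO CD172a+, 6.0 in CD24+ and 8.18 in control CD172a+ cDCs. Pla2g7, the platelet-activating factor hydrolase, rose by 2.09.

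Pathways linked to Zeb2 had members in both directions, where 7.52% of all genes were higher and 10.7% lower. Of 32 genes of TGF-beta, BMP and SMAD signalling, 2 were higher and 4 lower (1 and 2 with no replicate block), shares near those of all genes. The ligand Bmp2 rose by 2.99 (SE 0.237, adjusted p = 2.67e-06), with a mean of 7.27 against 4.33 in CD24+ and 7.55 in control CD172a+ cDCs, and the inhibitor Smad7 rose by 1.03, a call that ended with no replicate block (0.0623). The receptor genes Acvrl1 (-1.04) and Acvr1 (-0.58) fell. Of 25 Notch pathway genes, 4 were higher and 4 lower (1 and 3 with no replicate block, and 2 higher without CKO replicate 2 or CD24+ replicate 1). Rbpj, the DNA-binding partner of Notch, fell by 0.69, although a second, dimmer Rbpj probe set differed by 0.15 from CD24+ cDCs. Dtx1, a Deltex ubiquitin ligase, rose by 1.63, and Notch1 (0.08) was not past the test. Of 26 epithelial genes listed as targets of Zeb repression, 2 were higher and 2 lower (2 and 1 with no replicate block), a share near that of all genes. Epcam, an adhesion molecule of epithelia and some DCs, rose by 1.32, and St14, a membrane protease, by 1.17. Marveld2 fell by 0.66, and Cldn1 by 1.0 in a call that ended with no replicate block (0.247). Cdh1, the classical target of Zeb repression, differed by -0.06 and did not pass.

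Markers of other cell types were read in the same fit. Of 16 B cell markers, 7 were higher and 1 lower (5 and 0 with no replicate block), and the sum of their log2 values was 94.8 to 100.9 in CKO CD172a+ and 84.7 to 86.4 in CD24+ arrays. Cd22 rose by 1.84, Blk by 1.11 and Fcrl1 by 1.26, the last not without the block (0.0799). The list also holds Fcer2a (2.44) and Ms4a1 (1.55), described further below. These 2 members were higher than in control CD172a+ cDCs too, where 0.0903% of all genes were higher. The B lineage genes Cd79a, Pax5 and Ebf1 averaged 3.38, 5.16 and 3.80 in CKO CD172a+ cDCs, under the median level of all genes, and differed from CD24+ cDCs by 0.25, -0.08 and 0.05. Of 23 monocyte markers, 11 were higher and 3 lower, with sums of 160.4 to 166.3 against 145.4 to 148.3. Ms4a4c and Ms4a6c (2.18) rose, while Treml4, a marker of Ly6C-low monocytes and spleen macrophages, fell by 2.23. Ccr2 (-2.34) and Lyz2 (-1.82), described in other paragraphs, were lower too. Against control CD172a+ cDCs, 0 monocyte markers were higher and 2 lower, where 0.0552% of all genes were lower. Of 20 splenic macrophage markers, 7 were higher and 1 lower (1 and 1 with no replicate block), with sums of 107.6 to 130.4 against 103.9 to 112.4. The higher count was 4 without CKO replicate 2, 3 or 4 or CD24+ replicate 2, and 3 without CD24+ replicate 3, and the lower count was 2 without CKO replicate 3. Of the 20 members, 18 differed between replicate sets, beside 30.1% of all genes, and 16 were higher in the second. C1qc, for example, read 5.15, 5.55, 8.99 and 8.15 in CKO CD172a+ and 5.09, 6.13 and 6.15 in CD24+ arrays. Vcam1 (0.15), a marker of red pulp macrophages, did not pass.

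Of 23 plasmacytoid DC markers, 8 were higher and 4 lower (5 and 1 with no replicate block), with sums of 138.4 to 144.9 against 130.7 to 133.0. Against control CD172a+ cDCs 1 of the 23 was higher, where 0.0903% of all genes were. Siglech averaged 6.10 against 5.25, a difference of 0.83 (adjusted p = 0.0391) that ended with no replicate block (0.0924), and Spib rose by 1.87. Ccr9, another plasmacytoid DC marker, fell by 2.20 (adjusted p = 3.39e-06 in limma, and 3.18e-05 with no replicate block). Tcf4 (0.36), also such a marker, did not pass. T cell, NK cell and neutrophil markers had 1 higher member each of 14 measured, a share near the 7.52% of all genes. These members were Cd5, Klrc1 and Csf3r, and the first 2 calls ended with no replicate block (0.290 and 0.0540). Of 13 erythroid and platelet markers, 2 were higher (1 with no replicate block). The defining genes Cd3e, Ncr1, S100a8 and Alas2 averaged 5.40, 4.18, 4.36 and 5.23 in CKO CD172a+ cDCs, all under the median level of all genes. Immediate-early genes, which respond to tissue dissociation, had 6 higher members of 20, including Jun (1.11) and Egr1 (0.98), and 0 with no replicate block. Between replicate sets 16 of the 20 differed, beside 30.1% of all genes. Cell cycle genes had 5 lower members of 29, led by Mcm6 (-0.96) of the replicative helicase, beside 10.7% of all genes. The count was 0 with no replicate block, 3 without CD24+ replicate 3 and 9 without CD24+ replicate 1. Control CD172a+ against CD24+ cDCs gave 4 higher and 1 lower, with a median of 0.16. Against control CD172a+ cDCs, 0 of the 29 passed in CKO cDCs, with a median of -0.34 beside 0.006 for all genes. The part of these other cell types and of dissociation in the results above was not tested.

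Genes that stood apart in CKO CD172a+ cDCs were those past the test against both control groups. Both comparisons share the CKO arrays. There were 19 in the same direction, 13 higher and 6 lower, out of the 0.145% of genes past the test against control CD172a+ cDCs. Itgad, which encodes CD11d, read 7.67, 7.78, 8.0 and 7.86 in CKO CD172a+, 4.28, 4.84 and 4.65 in CD24+ and 5.01, 5.62, 5.72 and 5.81 in control CD172a+ arrays. The CKO arrays were above all others, by 3.30 against CD24+ (adjusted p = 1.15e-08) and 2.29 against control CD172a+ cDCs (adjusted p = 2.57e-06), although a second, dimmer Itgad probe set differed by 0.14 from CD24+ cDCs. Fcer2a read 6.40, 6.22, 6.59 and 6.70 in CKO CD172a+, 3.97, 3.97 and 4.27 in CD24+ and 4.44, 4.34, 4.47 and 4.46 in control CD172a+ arrays, with differences of 2.44 (adjusted p = 1.62e-08) and 2.05 (adjusted p = 6.11e-07). Cox6a2, a cytochrome c oxidase subunit, read 9.09, 8.99, 8.87 and 8.59 in CKO CD172a+, 6.28, 6.60 and 6.23 in CD24+ and 6.46, 6.84, 6.89 and 6.97 in control CD172a+ arrays. Its differences were 2.51 (adjusted p = 3.18e-07) and 2.09 (adjusted p = 2.53e-05), and the control groups lay close together. Plcb4, a phospholipase C downstream of G proteins, had another order, with 7.99, 7.85, 8.49 and 8.66 in CKO CD172a+, 6.65, 7.0 and 6.87 in CD24+ and 5.45, 5.34, 5.68 and 5.90 in control CD172a+ arrays. The CD24+ arrays lay between, and the differences were 1.48 (adjusted p = 1.39e-06) and 2.65 (adjusted p = 9.50e-08).

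Lyz2 was lower in CKO CD172a+ cDCs than in either control group, at 9.46, 9.41, 9.08 and 8.72 against 10.81, 11.29 and 10.79 in CD24+ and 10.98, 10.59, 11.06 and 10.65 in control CD172a+ arrays. The control groups overlapped, and the differences were -1.82 (adjusted p = 3.05e-05) and -1.66 (adjusted p = 0.00213). Eif2ak3, which encodes the stress kinase PERK, read 8.32, 8.31, 8.49 and 8.97 in CKO CD172a+, 6.94, 6.53 and 6.58 in CD24+ and 7.36, 7.45, 7.37 and 7.37 in control CD172a+ arrays, with differences of 1.85 (adjusted p = 4.71e-06) and 1.14 (adjusted p = 0.00707). The remaining genes named by the rule passed against CD24+ cDCs, and against control CD172a+ cDCs only with the replicate block. Ms4a1, which encodes the B cell protein CD20, differed by 1.55 and 2.02 (adjusted p against control CD172a+ cDCs 0.00201 with and 0.135 with no replicate block). For Cdh17, a cadherin of intestine and B cells, the values were 2.99 and 1.49 (0.0197 and 0.214), and for Rtn4rl1, a Nogo receptor homologue, 1.45 and 1.09 (0.0398 and 0.787). For Abca13, a lipid transporter, they were 1.03 and 1.10 (0.0120 and 0.998), and its CD24+ call ended as well with no replicate block (0.316). Without 1 array, the calls against control CD172a+ cDCs ended for Cdh17 (up to 0.111), Rtn4rl1 (up to 0.195) and Abca13 (up to 0.0597, without control CD172a+ replicate 1).

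In Epcam the values were 5.78, 5.33, 5.73 and 6.02 in CKO CD172a+, 4.23, 4.56 and 4.54 in CD24+ and 4.55, 4.64, 4.71 and 5.11 in control CD172a+ arrays, so the CKO arrays lay above all others. Against control CD172a+ cDCs the difference of 0.96 had adjusted p = 0.00621 with and 0.152 with no replicate block. Slc27a2, a fatty acid transport protein named after its values were seen, read 6.58, 6.27, 6.46 and 6.68 in CKO CD172a+, 4.11, 4.10 and 3.94 in CD24+ and 5.64, 5.64, 5.64 and 5.46 in control CD172a+ arrays, with differences of 2.44 (adjusted p = 2.40e-08) and 0.90 (adjusted p = 0.00275). The 3 groups were fully separate, with control CD172a+ cDCs in the middle. CACCTG, the E-box bound by Zeb factors, occurs in 17.2% of the 32851 promoter windows. It occurred in 4 of 10 windows of the 7 matched genes among the 13 that were higher than both control groups, in 3 of 26 windows of cDC1 markers and in 5 of 30 windows of cDC2 markers. Fcer2a and Plcb4 held it in 1 window each, and Abca13, Eif2ak3 and Sspo held no match. The windows of Epcam (chr17:87635729-87635978, plus strand) and Slc27a2 (chr2:126552774-126553023, plus strand) are shown as examples with a match, with capitals at CACCTG on either strand. A match shows no binding, and an effect of Zeb2 on these genes was not tested.
Epcam: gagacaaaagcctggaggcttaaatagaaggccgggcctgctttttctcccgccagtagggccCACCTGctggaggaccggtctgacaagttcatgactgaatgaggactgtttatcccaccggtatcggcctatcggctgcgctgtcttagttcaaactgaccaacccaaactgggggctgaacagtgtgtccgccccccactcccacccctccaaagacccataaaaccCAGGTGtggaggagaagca
Slc27a2: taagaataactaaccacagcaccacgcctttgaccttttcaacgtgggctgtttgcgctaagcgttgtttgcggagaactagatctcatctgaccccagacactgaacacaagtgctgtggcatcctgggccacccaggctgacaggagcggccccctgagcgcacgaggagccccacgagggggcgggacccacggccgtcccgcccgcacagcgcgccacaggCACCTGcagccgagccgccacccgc

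A small number of genes in CKO CD172a+ cDCs lay between the control groups. Past the test against both in opposite directions were 6 genes, 4 higher than CD24+ and lower than control CD172a+ cDCs and 2 the reverse. Csf1r, the receptor for M-CSF, read 7.32, 7.10, 7.88 and 7.60 in CKO CD172a+, 5.93, 5.57 and 5.62 in CD24+ and 8.50, 8.37, 8.38 and 8.40 in control CD172a+ arrays. The 3 groups did not overlap, with differences of 1.79 from CD24+ (adjusted p = 7.86e-06) and -0.94 from control CD172a+ cDCs (adjusted p = 0.0304, and 0.129 with no replicate block). Scn3a, a sodium channel subunit, read 5.23, 5.07, 4.60 and 5.0 in CKO CD172a+, 3.66, 3.75 and 3.95 in CD24+ and 6.22, 6.82, 6.30 and 6.18 in control CD172a+ arrays, with differences of 1.16 (adjusted p = 0.000333) and -1.41 (adjusted p = 0.00213). Plce1, another phospholipase C, read 5.74, 5.48, 5.79 and 6.06 in CKO CD172a+, 7.15, 6.91 and 6.86 in CD24+ and 4.79, 4.37, 4.83 and 4.89 in control CD172a+ arrays. Here the order was reversed, and the differences were -1.18 (adjusted p = 0.000117) and 1.05 (adjusted p = 0.00743). Cd300ld differed by 2.26 and -0.88, Pla2g7 by 2.09 and -0.66 and Txndc16 by -0.42 and 0.66. The calls of these last 3 genes against control CD172a+ cDCs ended with no replicate block (0.998 for Cd300ld, 0.785 for Pla2g7 and 0.998 for Txndc16), as did that of Txndc16 against CD24+ cDCs (0.496). Without 1 array, calls against control CD172a+ cDCs also ended for Csf1r (adjusted p up to 0.147), Plce1 (up to 0.0522, without CKO replicate 1), Pla2g7 (up to 0.0706) and Txndc16 (up to 0.142). The genes Cysltr1, Gramd3, Mt2 and Phxr4, named after their values were seen, passed against control CD172a+ and not against CD24+ cDCs. With no replicate block the calls ended for Cysltr1 (0.731), Mt2 (0.998) and Phxr4 (0.998), and without 1 array their adjusted p rose to 0.0920, 0.0920 and 0.131, while Gramd3 passed in each of these settings (up to 0.0229).

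**Figure D5:**
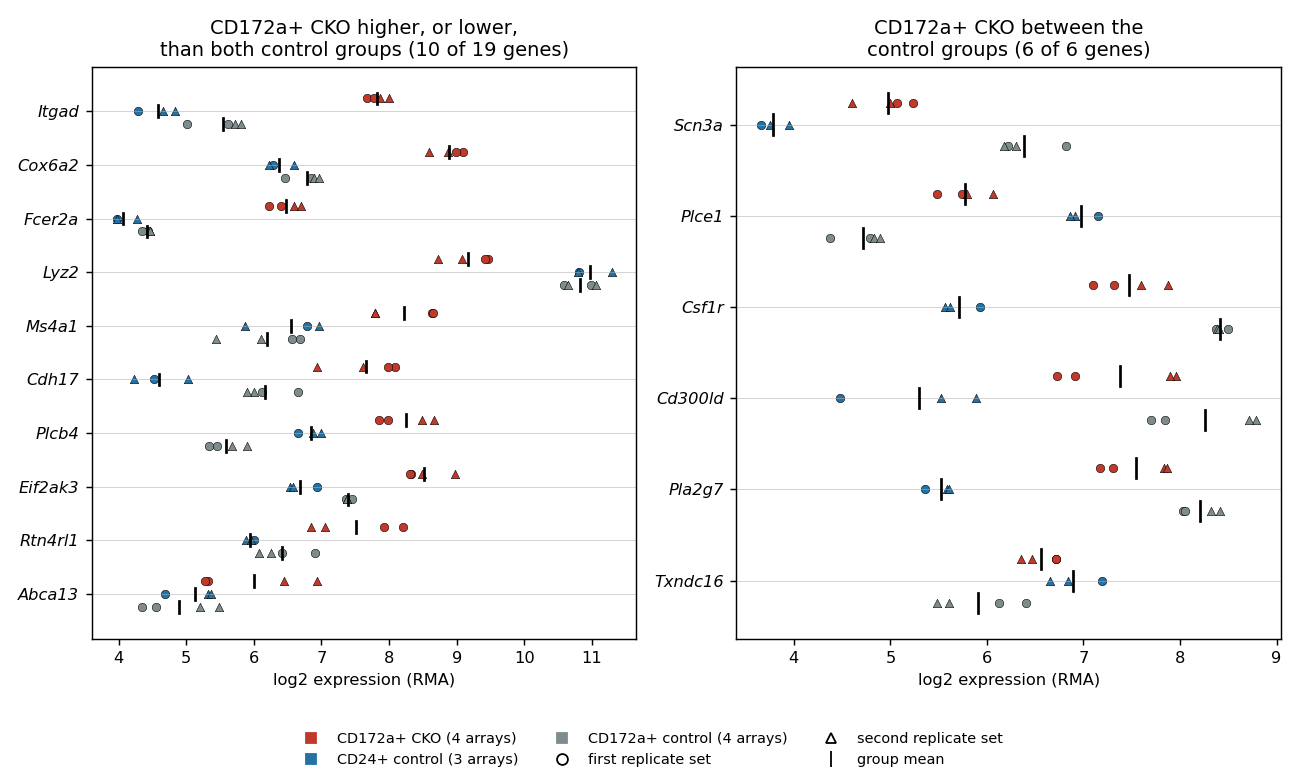
Log2 expression (horizontal axis) in every array of 10 of the 19 genes for which CKO CD172a+ cDCs were higher or lower than both control groups (left) and of the 6 genes for which they lay between them (right), with a bar at each group mean. For Itgad and Fcer2a all red CKO points lie to the right of the blue and grey control points, and for Csf1r they lie between them.

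The CKO minus CD24+ difference depended on the replicate set for 117 genes (0.587%) by the interaction test in limma. Irf4 and Irf8 were among them, with smaller differences in the second set, and the test rests on the 1 CD24+ array of the first set. Counts without 1 array ran from 5 without CKO replicate 1 to 193 without control CD172a+ replicate 3 or 4.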

How the data were processed

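Expression in 11 spleen cDC samples was measured on 1-colour arrays, 1 sample an array. The values are log2 expression per probe set, deposited by the authors; RMA (background correction, quantile normalization and probe summary) is named in the submitters' processing notes, and its settings are not given in the sources used here. The array medians were 5.454 to 5.521, and their number limits the precision.

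Of 30177 probe sets, 21789 had 1 gene symbol and were used, 1621 had several and 6767 had none. Each of 19938 genes was read from its probe set with the highest mean (999 genes had more than 1). Listed genes without such a probe set were not analysed here.

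The model in limma 3.58.1 (R 4.3.3) held the 3 groups and the replicate set, over all 11 arrays with 7 residual degrees of freedom, with Benjamini-Hochberg adjustment over all genes and a threshold of 0.05. The replicate sets were found from these values. Same-numbered CKO CD172a+ and CD24+ arrays correlated in their deviations at 0.592, -0.361 and 0.464. These deviations still carry the replicate set, so they cannot decide whether numbers pair arrays within a set. Numbers were not taken to pair arrays. The scripts were tested on simulated data. Tables and figures used Python 3.11.15 with pandas 2.3.3, numpy 2.4.6 and matplotlib 3.10.9.

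The genes and lists were chosen with earlier results of these data known. Named genes were the 15 largest differences each way, fixed subset and factor genes, up to 5 members with the smallest p in each list, up to 10 genes apart from both control groups in each pattern, and list members not past the test with a difference under 0.5. Exceptions are said in the text. Alternatives were no block, the replicate number as a block, the 7 arrays, the second set, the mean of probe sets, genes above the median level, an intensity trend, centred arrays, leaving out each array, and a 2-fold minimum.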

Additional observations from a re-analysis of the deposited data

Results flagged for a closer look

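Arrays were flagged by a cutoff that chance passes in about 1 in 20 groups (5%) when the arrays are of 1 kind. Each CD172a+ group mixes both replicate sets, so that rate does not hold here and the count is not set against it. Over the named genes, 1 array stood apart from the other 3 of its group for 16 of 368 groups of values examined. In CKO CD172a+ cDCs these were replicate 1 for Notch1 (5.95) and replicate 4 for Pax5 (5.27), Ptger3 (6.86) and Tlr7 (9.13). In control CD172a+ cDCs they were replicate 2 for Eif2ak3 (7.45), Gcsam (4.36) and Notch1 (5.75), replicate 3 for Acvrl1 (6.10), Lif (5.78) and Slamf6 (6.42), and replicate 4 for Clec12a (8.10), H2-Ea (6.33), Plpp1 (4.71), Psme1 (10.36), Slc27a2 (5.46) and Zeb2 (8.61).

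The difference between CKO CD172a+ and CD24+ cDCs itself differed between replicate sets for 11 of 184 named genes by the interaction test in limma, where 0.587% of all genes did. As second minus first set, the change of the difference was -1.89 for Cd4, -1.26 for Clec4a1, -1.75 for Ddx58, -1.80 for Dtx1, 1.59 for Gcsam, -1.40 for Il1r2, -2.05 for Irf4, 2.22 for Irf8, -1.43 for Ptgs2 and -1.85 for Spib, and each of these 10 differences was smaller in size in the second set. C1qc changed by 2.17 and its difference was larger in the second set (2.43) than in the first (0.26). The first set holds 1 CD24+ array, so its own spread was not measured.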

How the results depend on the processing

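Counts of genes against CD24+ cDCs (1500 higher, 2141 lower) stayed within 1.5 times without any 1 array, at 1152 to 1668 higher and 1542 to 2386 lower, and with the 7 arrays, the mean of probe sets, genes above the median level, an intensity trend or centred arrays. They fell to 647 and 782 with no replicate block, 924 and 1125 when the replicate number was the block, 789 and 1146 in the second replicate set, and 417 and 464 with a 2-fold minimum. Alternatives for the other comparisons and the interaction were added after the data were seen. Control CD172a+ against CD24+ cDCs gave 630 and 648, 904 and 939, 726 and 1027, and 405 and 375 under the same 4 settings, and CKO against control CD172a+ cDCs 8 and 2, 9 and 2, 5 and 2, and 11 and 3. Without 1 array the last comparison gave 10 to 40 higher and 3 to 32 lower genes. Its higher count was 10 without CKO replicate 1, 11 without control CD172a+ replicate 2 and 40 without CD24+ replicate 1, and its lower count was 3 without CKO replicate 2, 4 without CKO replicate 1, 5 without CKO replicate 4 or control CD172a+ replicate 1, 6 without CD24+ replicate 3 or control CD172a+ replicate 2, 7 without control CD172a+ replicate 4 and 32 without CD24+ replicate 1. Interaction calls ran from 5 to 193, with 5, 11, 8 and 45 without CKO replicates 1 to 4, 61 and 52 without CD24+ replicates 2 and 3, 71 without control CD172a+ replicate 1 or 2 and 193 without replicate 3 or 4. The cause of these shifts was not tested.

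Of 151 named genes past the test against CD24+ cDCs, 124 passed in the same direction under every alternative, 22 did not with no replicate block, 10 under the number block and 7 without at least 1 array (H2bc3, Cd5, Cldn1, Esam, Id2, Siglech and Txndc16). Of 29 against control CD172a+ cDCs, 3 passed under every alternative and 17 did not without at least 1 array. The sign of a called gene turned for H2bc3, at 0.02 with the number block.

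The other sign changes were in genes near 0 and not past the test. With no replicate block Batf3 was 0.06, H2-Aa 0.05 and Vcam1 -0.20. With the number block Batf3 and H2-Aa were 0.13, Clec10a -0.02, Irf7 0.10, Ncr1 0.02 and Vcam1 -0.55. In the second set Batf3 and Ncr1 were 0.13, Cd40 -0.06, Cd79a -0.17, Cd86 0.27, Ebf1 -0.01 and S100a8 0.16. With centred arrays Cd40 was -0.02 and Ebf1, Tlr4 and Zeb1 -0.01. Leaving out 1 array gave Alas2 -0.00 to 0.17, Batf3 -0.18 to 0.14, Cd40 -0.07 to 0.09, Cd79a -0.03 to 0.42, Cd86 -0.21 to 0.19, Cdh1 -0.13 to 0.03, Ebf1 -0.06 to 0.12, H2-Aa -0.11 to 0.05, H2-Ab1 -0.10 to 0.03, Ncr1 -0.18 to 0.13, Tlr4 -0.06 to 0.13, Vcam1 -0.06 to 0.51 and Zeb1 -0.00 to 0.10. Gene list counts of 2 or fewer moved by 1 without some arrays. Signal near background limits the precision of low genes.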
